A study of Argopecten irradians with 2 samples.

Results

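The unigenes described here carried the Swiss-Prot name of an actin, a myosin or another protein of the actin and muscle filaments (tropomyosin, paramyosin, filamin, twitchin, titin, alpha-actinin, troponin I or T, calponin, gelsolin, cofilin or profilin). A unigene is a transcript assembled from the reads without a genome, either a singleton or a contig of a cluster of similar contigs, the latter marked CL. Of 60308 unigenes listed, 276 had such a name and 235 of these had at least 10 reads in both libraries together. The 41 left out had at most 9 reads, and none of them passed the test described below. Just inside this limit, with 10 reads each, were Unigene18351_All, a myosin light chain kinase (6 reads in the control library against 4 with PA), and Unigene32699_All, a gelsolin (2 and 8 reads). The 235 unigenes fell into 16 families by name and into 166 clusters and singletons.

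RNA came from gills of the bay scallop, *Argopecten irradians*. The control scallops were kept with the solvent DMSO (0 mg/L palmitoleic acid), and the others with 80 mg/L palmitoleic acid (PA), an algicidal fatty acid, dissolved in DMSO, for 48 h in each case. Each condition had 1 library, from pooled gills of 18 scallops in the labels and of 3 pools of 6 scallops in the methods, so no difference had a replicate check. The control library summed to 10305482 reads and the PA library to 10414545 reads, where reads are the expected counts that RSEM estimated for each unigene. Levels are in FPKM, the reads scaled to unigene length and library total, and fold changes are ratios of FPKM, PA over control, on the log2 scale. A unigene was called higher or lower at an adjusted p of at most 0.001 in the test of Audic and Claverie and a fold change of at least 2. That test compares these 2 libraries, not the conditions. Intervals are 95% exact intervals of counting error only.

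Actin polymerizes into filaments that carry the cell cortex, microvilli and cell movement, and myosins pull on these filaments. In muscle, thin filaments of actin with tropomyosin and troponin slide past thick filaments of myosin, which in molluscs are built on a core of paramyosin. Scallop muscle is known for a myosin that is switched on by calcium bound to its light chains. A bivalve gill holds ciliated and mucous epithelium, haemocytes and muscle fibres, so that these transcripts have several sources, and in pooled tissue fewer cells of a type and less RNA per cell cannot be told apart.

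Of the 235 unigenes, 51 (21.7%) were called higher in the PA library and 19 (8.09%) lower. Among all 38391 unigenes with at least 10 reads, 13.3% were called higher and 10.7% lower. The 235 were longer, with a median of 1918 bp against 846 bp, and calls were more frequent among longer unigenes, as given below. The median log2 fold change was 0.39 over the 235 and 0.21 over all unigenes. Scaling by TMM, which takes the bulk of unigenes as unchanged, lowered every log2 fold change by 0.24, so that the median became 0.15 against -0.03 over all unigenes, with 39 of the 235 called higher and 31 lower against 9.997% and 14.003% of all unigenes. Summed over the 235, the reads went the other way, from 20773 RPM (the reads scaled to a common library total) in the control library to 18129 RPM in the PA library (log2 -0.20, or -0.44 with TMM). Most of that difference lay on the actin unigene with the most reads, without which the sums were 11771 and 11303 RPM.

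**Figure D1:**
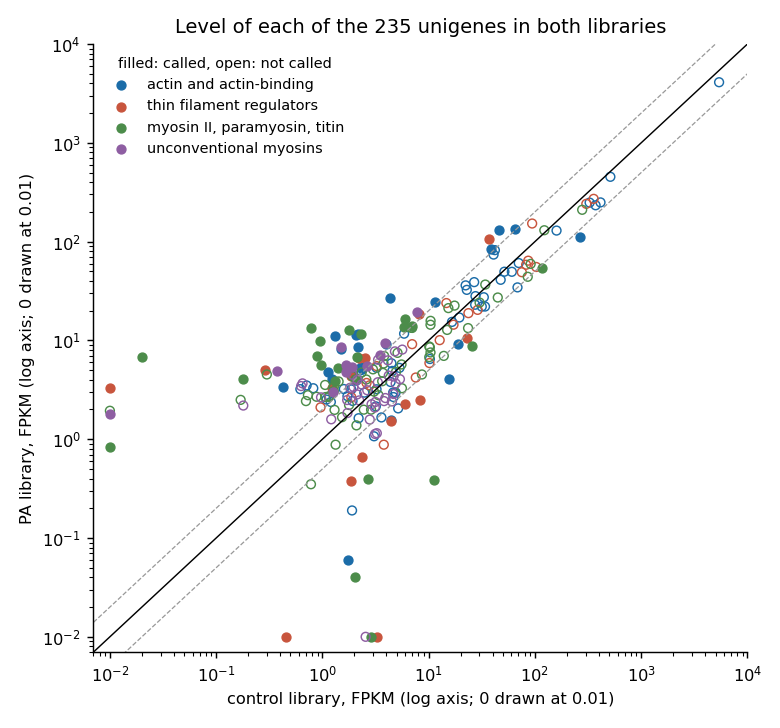
Level of each of the 235 unigenes in the control library (x axis, FPKM, log axis) and in the PA library (y axis, FPKM, log axis), with colours for 4 roles, filled circles for called unigenes, a solid line of equal level and dashed lines at a 2-fold difference. Most of the unigenes above 100 FPKM in the control library sit below the solid line, while the filled circles above the lines lie mostly under 20 FPKM in the control library.

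The fold change went with the level. Of the 14 unigenes with 5000 reads or more, 11 had a log2 fold change below 0 and the median was -0.37, where all 418 unigenes of that level had a median of -0.12. Between 50 and 199 reads the median was 0.63 (59 unigenes, 17 called higher and 8 lower), against 0.20 over all unigenes of that level. Among the unigenes of 4000 bp or more, 14 of 40 were called higher (35.0%), against 22.7% of all unigenes of that length. The medians were 0.60 and 0.12. From 2000 to below 4000 bp 31.5% were called higher, against 23.3% of all unigenes of that length. This excess was not seen at every length. From 1000 to below 2000 bp the shares were 18.0% and 20.5%, and from 500 to below 1000 bp 4.65% and 9.79%. From 200 to below 500 bp they were 5.56% (1 of 18 unigenes) and 3.16%.

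**Figure D2:**
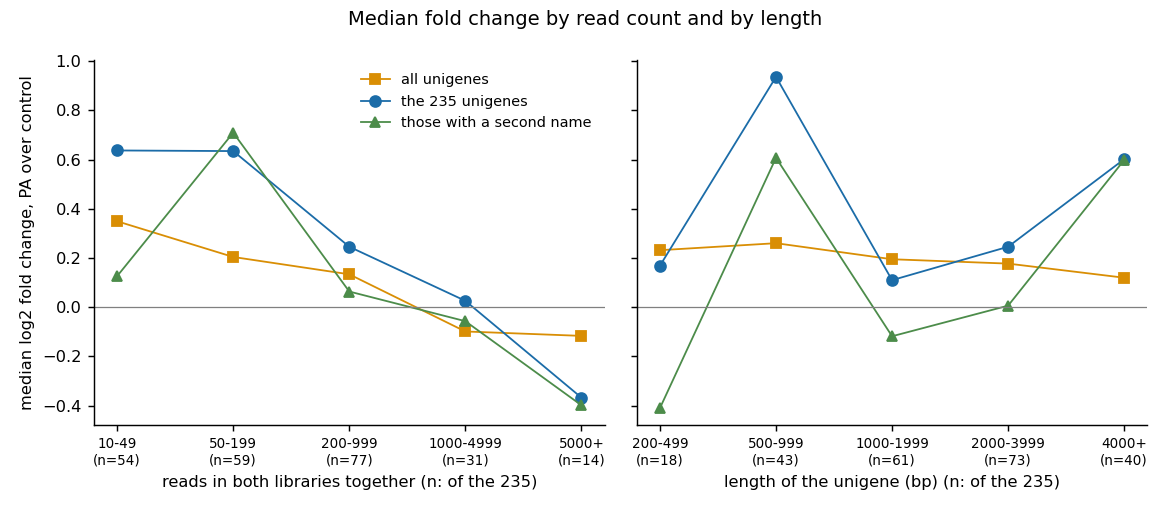
Median log2 fold change (y axis, PA over control) by reads in both libraries together (left) and by length in bp (right), for all unigenes with at least 10 reads (squares), the 235 unigenes (circles) and those of them with a second name in another database (triangles), with the number of the 235 below each bin. By reads the median of the 235 moved from 0.64 in the lowest bin to -0.37 in the highest, and that of all unigenes from 0.35 to -0.12.

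The Swiss-Prot names were checked against the best Nr hit and the Interpro domain. For 168 of the 235 unigenes at least 1 of these named the same family, and of these 36 were called higher (21.4%) and 17 lower (10.1%), with a median of 0.11 (-0.13 with TMM). For the other 67 unigenes neither did, and 15 were called higher (22.4%) and 2 lower (2.99%), with a median of 0.86 (0.62 with TMM). Over all unigenes the shares were 13.3% and 10.7%, with a median of 0.21 (-0.03 with TMM). Of these 67, 31 carried the name of a myosin heavy chain. The best Nr hit was a Pacific oyster (*Crassostrea gigas*) protein for 117 unigenes and was not from an animal for 8, of which 5 were actins. Contigs of a cluster share sequence, and RSEM divides reads that match several contigs by estimate, so that a contig alone is uncertain. Of the 70 called unigenes, 53 were contigs of clusters, and for 15 of these the summed reads of the whole cluster were called in the same direction. Summed by cluster, 27 of the 166 clusters and singletons were called higher (16.3%) and 4 lower (2.41%), where 10.97% and 7.81% of all clusters and singletons were. These sums take in every contig of a cluster, also contigs that are not among the 235. In CL1032, for example, the only 1 of the 235 had 36.4 and 23.5 reads, while the cluster had 94 and 230 reads and was called higher.

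**Figure D3:**
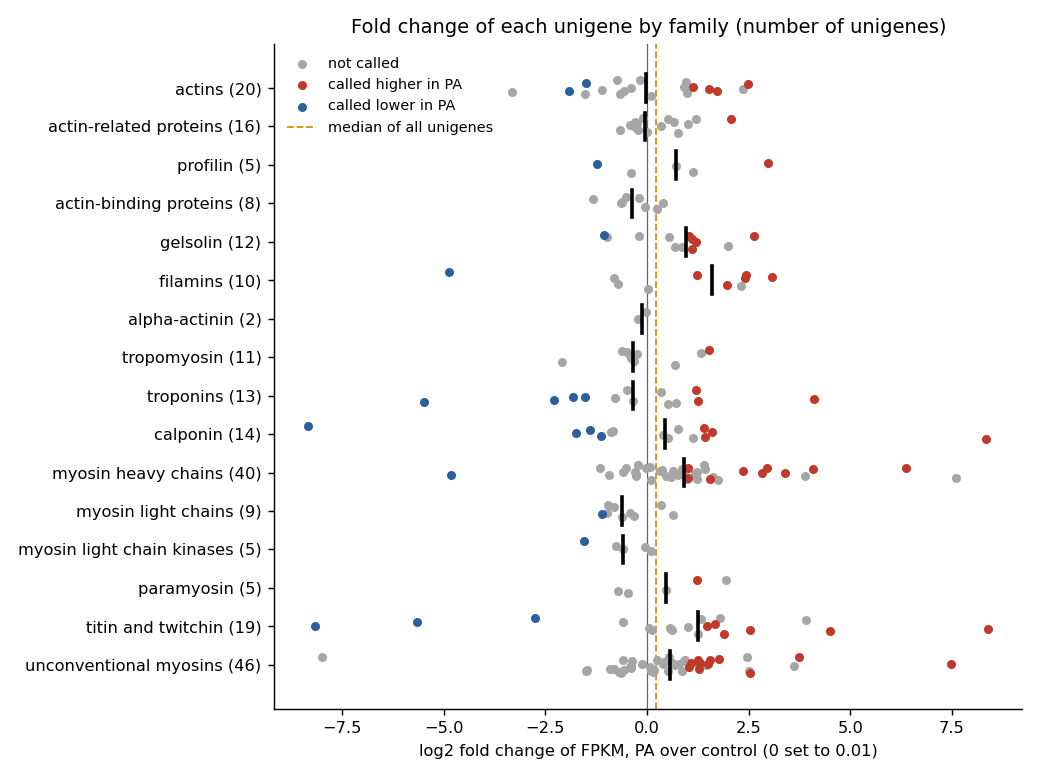
Log2 fold change of FPKM (x axis, PA over control, FPKM of 0 set to 0.01) of each unigene by family (y axis, with the number of unigenes), called higher in red, called lower in blue and not called in grey. Black bars are family medians, from -0.62 in the myosin light chains to 1.60 in the filamins, and the dashed line is the median of all unigenes at 0.21.

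Actin itself was carried mostly by 1 unigene. CL3747.Contig1_All, named cytoplasmic actin, had 5404 FPKM (92771 reads) in the control library against 4101 FPKM (71088 reads) with PA. The log2 fold change of -0.40 (-0.41 to -0.39) lay under 2-fold and was not called. It ranked 6 by reads among all unigenes and held 43.3% and 37.7% of the reads of the 235. The other abundant actins lay below their control level too. CL3747.Contig2_All had 512 FPKM in the control library against 453 FPKM with PA, and CL3747.Contig3_All, named for adductor muscle actin, 372 and 233 FPKM. CL889.Contig1_All, also named for adductor muscle actin, had 414 and 249 FPKM. None of these 3 was called. The study's qPCR used β-actin as its reference gene, and which of these contigs its primers match was not examined.

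Of the rarer actins, 6 were called. Unigene6633_All, named actin-11, fell from 15.5 FPKM (516 reads) to 4.08 FPKM (137 reads), a log2 fold change of -1.93 (-2.21 to -1.65, adjusted p = 4.66e-52). CL889.Contig3_All, a fragment of 382 bp, rose from 45.6 to 131 FPKM (156 and 452 reads), while its cluster of 4 contigs went from 2231 to 1709 reads. The other 3 that rose had few reads. Unigene17605_All had 15 reads in the control library against 84 with PA, Unigene12530_All 19 and 63, and Unigene8741_All 39 and 86. CL1581.Contig1_All fell from 57.6 to 20.7 reads, and its best Nr hit was an actin of the amoeba *Entamoeba*. Over the 20 actins the median log2 fold change was -0.03 (-0.28 with TMM), with 10 above and 10 below 0, and summed RPM went from 10477 to 7993.

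Profilin, which binds actin monomers and feeds them to growing ends, was carried by 2 contigs of 1 cluster. CL601.Contig1_All fell from 263 FPKM (3662 reads) to 112 FPKM (1572 reads), a log2 fold change of -1.23 (-1.32 to -1.15, adjusted p = 3.26e-191). CL601.Contig2_All had 327 and 248 FPKM and was not called, and the whole cluster, with 8151 and 5011 reads (-0.72), was not called either. The rare profilin-4 cluster CL4386 rose from 23 to 69 reads (1.57, 0.87 to 2.32).

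In the Arp2/3 complex, which starts branches on actin filaments, 1 of 10 unigenes was called higher and none lower. Its most abundant unigene, the subunit 1A on Unigene5994_All, had 160 FPKM in the control library against 129 FPKM with PA (-0.30). Actin-related protein 2, on Unigene6040_All, had 47.6 and 41.1 FPKM. The call was CL2934.Contig3_All, actin-related protein 3, with 27.9 and 119 reads, whose cluster of 4 contigs stood at 469 and 479 reads. The 8 unigenes of actin-binding and actin-interacting proteins held no call. Actin-interacting protein 1, which speeds the disassembly of filaments with cofilin, had 31.6 and 22.0 FPKM on CL5069.Contig2_All (-0.52) and 33.9 and 22.0 FPKM on CL1942.Contig1_All (-0.62). An actin-depolymerizing factor of the cofilin family, on Unigene1459_All, had 51.6 and 49.6 FPKM.

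Gelsolins cut and cap actin filaments in a calcium-dependent way. Of their 12 unigenes, 5 were called higher (41.7%) and 1 lower (8.33%), with a median of 0.95 (0.71 with TMM). Over all unigenes the shares were 13.3% and 10.7%. By cluster, 1 of 5 gelsolins was called higher and none lower. CL2584.Contig4_All, gelsolin-like protein 2, rose from 64.7 FPKM (1512 reads) to 133 FPKM (3146 reads), a log2 fold change of 1.04 (0.95 to 1.13). Its cluster of 4 contigs had 3799 reads in the control library against 7233 with PA, a difference of 0.91 (0.86 to 0.97) that lay under 2-fold and was not called. CL2584.Contig1_All rose from 38.99 to 84.4 FPKM. Gelsolin-like protein 1, CL3222, had contigs that moved apart, with Contig2 rising from 117 to 729 reads and Contig4 from 317 to 686, while Contig1 had 1861 and 944 reads and was not called. The whole cluster went from 3000 to 3393 reads (0.16). CL3647.Contig1_All fell from 396 to 193 reads within a cluster of 838 and 916 reads, and the singleton Unigene19548_All rose from 79 to 185 reads.

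Filamins, long proteins that cross-link actin filaments and tie them to the membrane, had the highest median of the families. Of 10 unigenes, 5 were called higher and 1 lower, with a median of 1.60 (1.36 with TMM) and summed RPM of 257 and 497. The 2 contigs of CL1443 rose, from 2.31 to 5.42 FPKM and from 2.08 to 11.3 FPKM. The cluster rose from 256 to 966 reads (1.90, 1.70 to 2.11, adjusted p = 9.34e-94). CL2953 rose from 198 to 610 reads (1.61, 1.37 to 1.85), nearly all of it on CL2953.Contig3_All (2.18 and 8.53 FPKM). The largest filamin cluster, CL1169, had 1352 and 2718 reads (0.99, 0.90 to 1.09), just under the 2-fold that a call needs. Its contigs moved in opposite directions, since Contig5 rose from 126 to 1082 reads and Contig4 from 207 to 1116, while Contig3 fell from 158 to 5.73 reads. The filamin with the most reads, Unigene10201_All, stood at 27.6 and 28.1 FPKM (0.03, -0.11 to 0.16). Alpha-actinin, which anchors actin filaments side by side, had 70.4 and 60.7 FPKM on Unigene1653_All (-0.21) and was not called. The other unigene of that family, Unigene15180_All, carried the name of a protein that binds alpha-actinin, with 66 reads in each library.

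The regulators of the thin filament differed little in the sum and more between contigs. Tropomyosin, which lies along the actin filament, was carried by cluster CL534, with 30083 reads in the control library against 27523 with PA (-0.14, -0.17 to -0.12). CL534.Contig9_All had 357 and 271 FPKM and CL534.Contig1_All 304 and 241 FPKM, and neither was called. CL534.Contig5_All rose from 36.9 FPKM (1036 reads) to 106 FPKM (3005 reads), a log2 fold change of 1.52 (1.42 to 1.62, adjusted p = 8.43e-213). It was the only one of 11 tropomyosin unigenes that was called.

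Troponin T, which ties troponin to tropomyosin, stood at 1311 reads in the control library against 1332 with PA over its 6 contigs (0.01, -0.10 to 0.12). Among them CL1245.Contig1_All rose from 128 to 300 reads, CL1245.Contig7_All fell from 40.9 to 11.7 reads, and the most abundant, CL1245.Contig2_All, had 28.9 and 20.4 FPKM without a call. Troponin I, the inhibitory subunit, had 333 and 487 reads over the 7 contigs of CL1180 (0.53, 0.33 to 0.74, not called). CL1180.Contig3_All rose from 11.6 to 204 reads (4.11, 3.24 to 5.05) and CL1180.Contig6_All from 52.0 to 125 reads. CL1180.Contig8_All fell from 125 to 43.6 reads, CL1180.Contig1_All from 54.1 to 11.3 reads, and CL1180.Contig11_All from 12.6 to 0 reads, at least 4.24-fold lower when 0 is set to the 3 reads that a count of 0 allows.

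Calponins, which bind actin and in vertebrates damp smooth muscle contraction, had both called rises and called falls, and the abundant ones lay below their control level. CL859.Contig2_All, named calponin-3, had 103 FPKM (2360 reads) in the control library against 55.3 FPKM (1283 reads) with PA (-0.89, -0.99 to -0.80) and was not called. Its sister CL859.Contig1_All had 0 and 77.5 reads, at least 25.6-fold higher against the same floor, and the cluster summed to 2360 and 1360 reads (-0.81). CL1693.Contig1_All fell from 23.02 to 10.5 FPKM (-1.13, -1.38 to -0.88), Unigene10096_All from 83 to 25 reads, and CL4667.Contig2_All from 49.95 to 0 reads, at least 16.8-fold lower, in a cluster of 99 and 84 reads. Over the 8 calponins proper, 1 was called higher and 3 lower, and summed RPM went from 321 to 188. The 6 unigenes named for a calponin homology domain, and not as calponins, had 3 called higher and 1 lower, and 4 of the 6 had no second name. Unigene15146_All rose from 62 to 188 reads and Unigene4396_All from 82 to 219, and neither had a second name. CL1188.Contig1_All rose from 30.8 to 83.9 reads and CL1188.Contig2_All of the same cluster fell from 290 to 111.

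**Figure D4:**
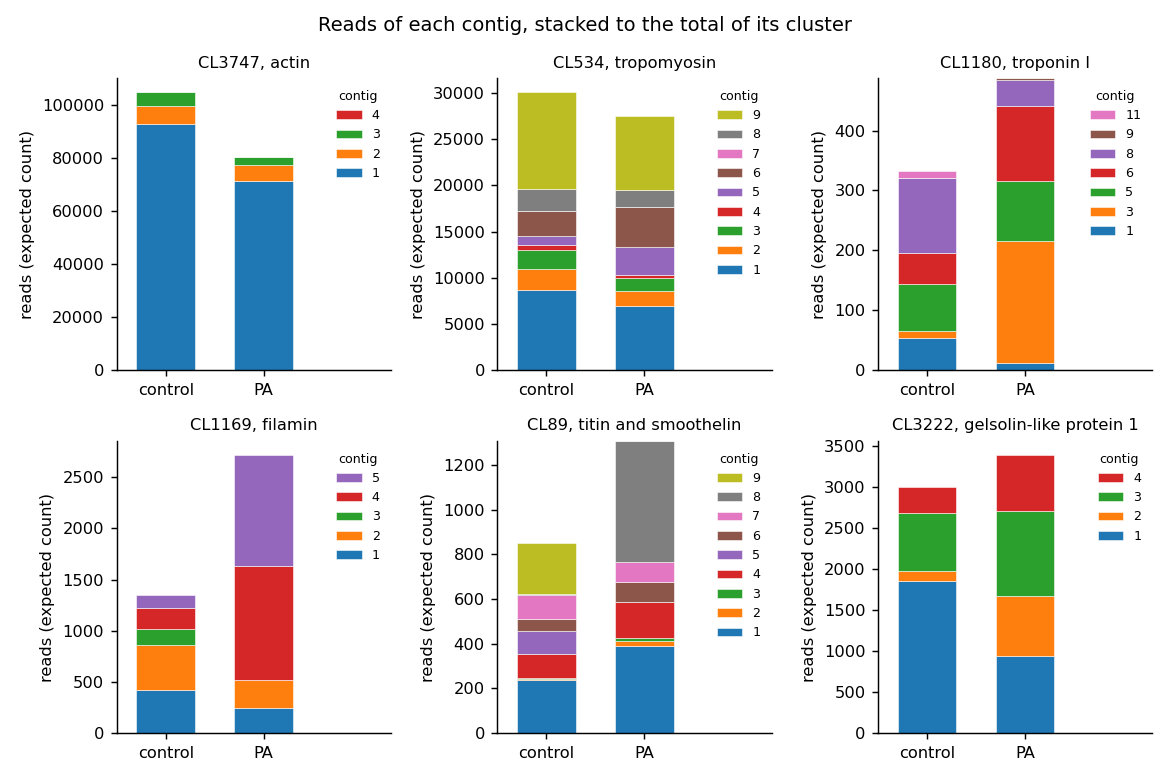
Reads (y axis, expected count) of each contig in the control and the PA library, stacked to the total of its cluster, for 6 clusters. The actin cluster goes from 104651 to 80373 reads with the same contig leading, while in filamin (1352 and 2718 reads), troponin I (333 and 487 reads) and titin (852 and 1307 reads) the contig with the most reads differs between the libraries.

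Among the thick filament proteins, the light chains of myosin had the lowest median of the families. These small subunits sit on the neck of the myosin head, and the regulatory one controls the motor. Of 9 unigenes, 7 had a log2 fold change below 0 under both scalings, 1 was called lower and none higher, with a median of -0.62 (-0.86 with TMM). The regulatory light chain of the smooth muscle and non-muscle type, cluster CL2178, fell from 6060 to 2970 reads (-1.04, -1.11 to -0.98, adjusted p = 2.17e-241). Of its contigs, CL2178.Contig2_All fell from 117 to 54.4 FPKM and CL2178.Contig1_All had 85.5 and 44.0 FPKM, just short of 2-fold. The most abundant essential light chain, Unigene16670_All, had 278 and 210 FPKM (-0.41, -0.47 to -0.35). The essential light chain of striated adductor muscle, Unigene3624_All, had 91.1 and 59.5 FPKM (-0.62). The regulatory light chains of scallop muscle, cluster CL2265, had 871 and 681 reads (-0.37, -0.52 to -0.22).

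Myosin light chain kinases phosphorylate the regulatory chain in smooth muscle and non-muscle cells. Of 5 unigenes with this name, Unigene18869_All fell from 25.7 FPKM (647 reads) to 8.86 FPKM (225 reads), a log2 fold change of -1.54 (-1.76 to -1.32, adjusted p = 1.38e-47). CL3983, the long smooth muscle form, had 823 and 637 reads (-0.38) and was not called. CL1233.Contig1_All had 122 and 130 FPKM, and neither its Nr hit nor its domain named it a myosin kinase.

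Paramyosin, the core of the molluscan thick filament, had 44.7 FPKM (1712 reads) in the control library against 27.2 FPKM (1052 reads) with PA on Unigene5965_All (-0.72, -0.83 to -0.61), which was not called. The other 4 unigenes named paramyosin had no second name, and 1 of these, Unigene45652_All, rose from 5.88 to 13.8 FPKM.

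Heavy chains of myosin, the motor itself, had 9 of 40 unigenes called higher (22.5%) and 1 lower (2.50%), against 13.3% and 10.7% of all unigenes. Non-muscle myosin heavy chain, CL1235, had 2946 reads in the control library against 3187 with PA (0.10, 0.03 to 0.17), with 34.1 and 36.8 FPKM on CL1235.Contig1_All. The cluster of striated muscle heavy chain, CL3289, had 1243 and 1803 reads (0.52, 0.42 to 0.63). Neither was called, and with TMM the 5 striated muscle unigenes summed to 0.28 and the 3 non-muscle ones to -0.15. All but 1 of the calls of this family were on unigenes with no second name, of which 8 of 31 were called higher and 1 lower. CL1633.Contig2_All rose from 0.78 to 13.2 FPKM (15 and 257 reads), CL57.Contig2_All from 23 to 245 reads, Unigene32939_All from 13 to 102 reads and Unigene204_All from 43 to 311 reads. The best Nr hits of these 4 were uncharacterized proteins of the Pacific oyster. Swiss-Prot names of this kind can rest on the coiled coil that many proteins share with the myosin rod. Of the 9 heavy chains with a second name, 1 was called (11.1%), Unigene19372_All, which stood just at 2-fold with 56 and 113 reads. CL201.Contig1_All fell from 195 to 6.98 reads, while its cluster of 6 contigs stood at 527 and 526 reads.

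Titin and twitchin are giant elastic proteins of muscle, made of repeated immunoglobulin and fibronectin domains that occur in many other proteins. Of 19 unigenes, 6 were called higher and 3 lower, with a median of 1.26 (1.02 with TMM), and 11 of the 19 had a second name. CL3921 rose from 122 to 414 reads on 2 contigs (1.75, 1.45 to 2.05), and CL736.Contig1_All from 2.63 to 61.9 reads (4.50, 2.74 to 6.67). The other contig of CL736, named peroxidasin, had 2.37 and 67.1 reads. The titin with the most reads, CL5055.Contig1_All, had 10.1 and 6.77 FPKM and a microtubule-associated protein as its Nr hit. In CL89 the reads changed place between long contigs. CL89.Contig9_All, of 7832 bp, fell from 231 to 0 reads, at least 77.7-fold lower, and CL89.Contig5_All from 102 to 2.27 reads (-5.67, -8.75 to -3.80), while CL89.Contig8_All, of 7747 bp, rose from 1.80 to 543 reads (8.40, 6.21 to 11.12). The cluster, which also holds contigs named smoothelin, went from 852 to 1307 reads (0.60, 0.48 to 0.73) and was not called. CL32.Contig2_All fell from 118 to 17.9 reads, but the other named contigs of its cluster carried the name cordon-bleu, an actin nucleator.

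Unconventional myosins, which move along actin without forming filaments, were the largest family, with 46 unigenes. Of these, 11 were called higher (23.9%) and none lower, with a median of 0.57 (0.33 with TMM) and summed RPM of 496 and 849. Over all unigenes 13.3% were called higher and 10.7% lower. The family had a median length of 2613 bp, and from 2000 to below 4000 bp 23.3% of all unigenes were called higher and 17.9% lower. By cluster, 7 of 37 were called higher (18.9%) and none lower, where 10.97% and 7.81% of all clusters and singletons were. Myosin-III, known from the photoreceptors of flies and from the actin protrusions of vertebrate hair cells, had 5 of 11 unigenes called higher. Summed by cluster, 2 of 7 were called higher. CL4717.Contig2_All rose from 7.81 FPKM (709 reads) to 19.2 FPKM (1760 reads), a log2 fold change of 1.30 (1.17 to 1.42), and its cluster from 1089 to 2346 reads (log2 fold change 1.09). CL3849.Contig2_All, which had no second name, rose from 1.48 to 8.56 FPKM (2.53, 2.25 to 2.82), and CL2633.Contig1_All from 0 to 66.3 reads, at least 21.9-fold higher, in a cluster of 354 and 631 reads (0.82) that was not called. Contig2 (57.9 and 141 reads) and Contig4 (103 and 219 reads) of CL2633 were also called higher.

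Myosin-VII and myosin-XV, which in vertebrates help build the stereocilia of hair cells, also had calls in this direction alone. Myosin-VII had 2 of 7 unigenes called higher, among them CL3122.Contig4_All, which rose from 10.5 to 142 reads in a cluster of 514 and 1033 reads (0.99, 0.84 to 1.15), and Unigene110_All, which rose from 70 to 241 reads. Unigene4975_All, also named myosin-VIIa, had 457 and 349 reads. Myosin-XV had 2 of 6 called higher, CL1104.Contig1_All with 96.1 and 285 reads and Unigene6488_All with 30 and 86 reads. Myosins I, V, VI and IX had no call in either direction on 17 unigenes. The 3 unigenes of myosin-IX lay below 0, and the medians of myosin-V and myosin-I were -0.42 and 0.42, or -0.66 and 0.18 with TMM.

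**Figure D5:**
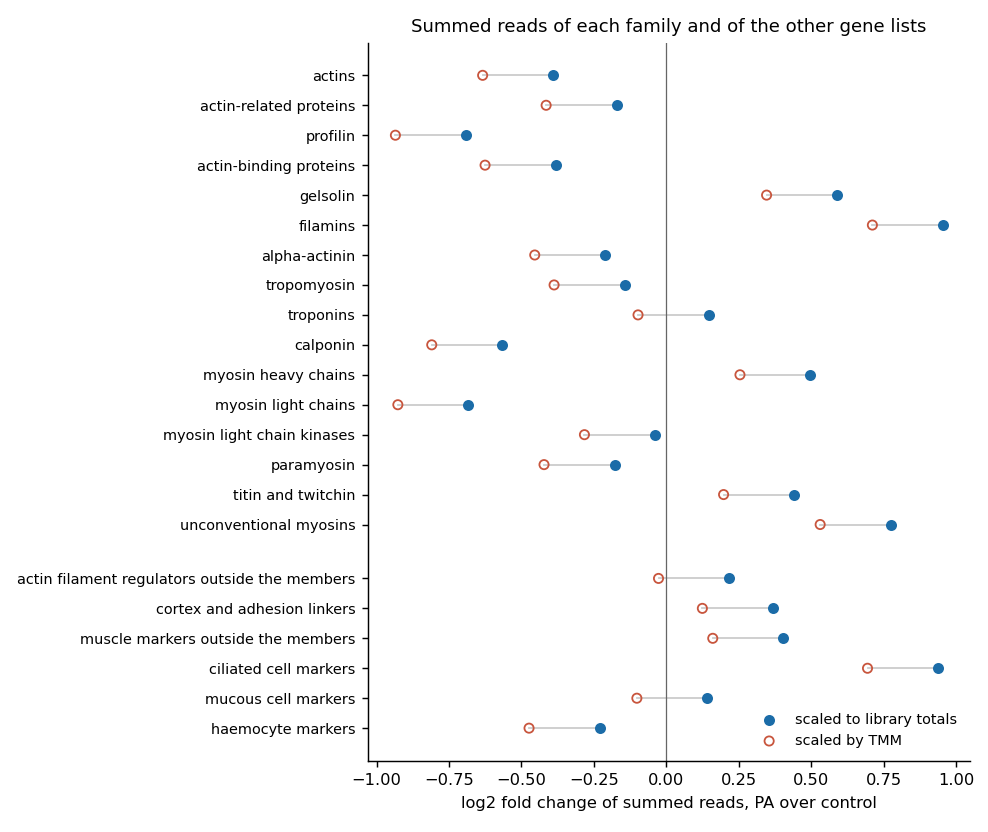
Log2 fold change (x axis, PA over control) of the summed reads of each of the 16 families and of 6 other gene lists (y axis), scaled to library totals (filled) and by TMM (open). Filamins (0.95), unconventional myosins (0.77) and gelsolins (0.59) lie to the right, profilins (-0.69), myosin light chains (-0.68) and calponins (-0.57) to the left, and troponins (0.15, or -0.10 with TMM), actin filament regulators and mucous cell markers change sign with the scaling.

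Genes of the same system outside the 235 were counted in the same way. Of 77 unigenes of other actin filament regulators, such as capping protein, formins and thymosin, 11 were called higher (14.3%) and 5 lower (6.49%), with a median of 0.07 (below 0 with TMM). Of 71 unigenes of cortex and adhesion linkers, such as spectrin and talin, 13 were called higher (18.3%) and 9 lower (12.7%), with a median of 0.39. The shares over all unigenes were 13.3% and 10.7%, with a median of 0.21, so that the first list had near the usual share called higher.

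The cells of the gill were followed by their markers. Of 124 unigenes of ciliated cells, 35 were called higher (28.2%) and 2 lower (1.61%), and their sum went from 1670 to 3199 RPM. All 6 tektins, structural proteins of the ciliary axoneme, were called higher, with 2859 and 7541 reads in all. Other words of the list were less uniform in their calls, but their summed reads were higher with PA too. The 72 axonemal unigenes had 3550 and 8134 reads, with 16 called higher and none lower. The 6 radial spoke unigenes had 2346 and 4264 reads, with 1 called higher. The 7 outer dense fiber unigenes had 2586 and 4771 reads, with 5 called higher. For the 21 intraflagellar transport unigenes the reads were 4270 and 5520, with 2 called higher and 2 lower. Of the 124, 112 had a log2 fold change above 0 (105 with TMM). The summed ciliated cell markers moved with the unconventional myosins and the filamins, and their part in those results was not tested. Of 72 unigenes of muscle markers, 15 were called higher (20.8%) and 7 lower (9.72%), and their sum went from 1089 to 1440 RPM, while the light chains of adductor muscle and the paramyosin on Unigene5965_All were not called. The name unc-89 alone accounted for 27 of the 72, with 9 called higher and 2 lower (1799 and 2778 reads). Within this list troponin C had 1136 and 2102 reads, arginine kinase 2581 and 3137, and calsequestrin 52 and 15, and nebulin, projectin and kettin had no unigene with 10 reads. Of 41 unigenes of haemocytes, 15 were called higher (36.6%) and 6 lower (14.6%), and their sum went from 680 to 580 RPM. Within that list the marker allograft inflammatory factor fell on both unigenes, from 2843 to 849 reads together. Integrin beta, with 7 unigenes, had 2891 and 1430 reads, with none called higher and 3 lower. Toll-like receptors made up 26 of the 41 unigenes, with 949 and 2108 reads. They held 12 of the 15 calls higher, and 1 was called lower. Mucous cell markers summed to 3619 and 3993 RPM, with 51 of 167 called higher (30.5%) and 29 lower (17.4%), where 13.3% and 10.7% of all unigenes were. The part of muscle, haemocyte and mucous cell markers in the results above was not tested.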

How the data were processed

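Gill libraries of control and PA-exposed scallops (1 each) were compared. The authors filtered reads with SOAPnuke, assembled them with Trinity and TGICL, mapped them with Bowtie and estimated expression with RSEM. They deposited an expected count and an FPKM value per unigene with annotation, and a table of their own comparison, whose fold changes, p-values and calls were not used.

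Here, expected counts were rounded to whole numbers and compared by the two-sided Audic and Claverie test, with Benjamini-Hochberg adjustment over all unigenes. Calls needed an FDR no higher than 0.001 and a 2-fold difference of FPKM, with an FPKM of 0 set to 0.01 and a count of 0 bounded at 3 reads. Cluster sums were tested over all clusters. Calling was tested on simulated Poisson counts with no variation between pools, so that run could not show how such variation affects the calls. Alternatives included TMM and edgeR exact tests that assume a coefficient of variation of 0.2 or 0.4.

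Named unigenes were the most abundant of each family, called members of the thin filament and actin-binding families, the 8 largest rises and 8 largest falls with at least 10 reads in each library, those with at most 3 reads in 1 library and at least 50 in the other, and contigs of the same cluster. Others, such as CL2178, CL3921 and Unigene110_All, were chosen after their values were seen. The members and lists were chosen with earlier results of these data known, as were the second-name check and the narrowing of the words of the other lists after false matches. Python 3.11.15, numpy 2.4.6, scipy 1.17.1, pandas 2.3.3, matplotlib 3.10.9, R 4.3.3 and edgeR 4.0.16 were used. No sequence is shown. A gene list fixed for comparison is not reported here.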

Additional observations from a re-analysis of the deposited data

How the results depend on the processing

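The 51 unigenes called higher and 19 called lower depended on the processing. With TMM 39 were called higher and 31 lower, and with the median of ratios 41 and 30. Summing the contigs of a cluster left 27 higher and 4 lower. At a fold change of at least 4 the counts were 21 and 8. With the exact test of edgeR they were 20 and 7 at an assumed coefficient of variation of 0.2, where 5.06% of all unigenes were higher and 4.76% lower, and 3 and 3 at 0.4, where 0.581% were higher and 1.02% lower. Counting singletons alone, an alternative chosen after seeing the data, gave 14 and 3. With no filter on low counts, at least 50 reads, a pseudocount of 1 FPKM, words in the description alone, animal hits alone, an FDR of 0.05 or (chosen after seeing the data) a second name, both counts stayed within 1.5 times of 51 and 19. The median of 0.39 stayed above 0 under each alternative run for it, from 0.11 with a second name to 0.47 with no filter. The value of 0.11 lay below the median of 0.21 over all unigenes, and with TMM the unigenes with a second name had -0.13 against -0.03.

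Family medians changed sign for paramyosin (-0.72 with a second name), troponins (0.00066 with no filter and with at least 50 reads, 0.51 by cluster and for singletons), calponins (-0.42 by cluster, -0.87 with a second name), actin-related proteins (0.43 with a second name) and actins (0.51 with at least 50 reads, 0.85 by cluster, 0.97 for singletons). The summed RPM of 20773 and 18129 became 22600 and 16663 with TMM, 25595 and 23293 without the 2 unigenes with the most reads in the library total, and 11771 and 11303 without the leading actin (chosen after seeing the data). The causes were not tested. No paired analysis was possible because each condition had 1 library, and no library could be left out. At this depth the 54 unigenes of 10 to 49 reads had few calls, 2 higher and 2 lower.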
